A study of Mus musculus with 8 samples.

Results

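The 49 genes described here encode the enzymes that make, phosphorylate, dephosphorylate and cleave phosphatidylinositol (PI). They were chosen by name for these roles and had to be listed in the count tables of both stages, and they are 49 of the 22836 genes listed in both. RNA was sequenced from cortices of Mboat7+/- and Mboat7-/- mouse embryos at E11.5 and E12.5, from 2 embryos of each genotype per stage, which makes 8 cortices. The Mboat7-/- embryos are global knockouts, and the control was the heterozygote, so every embryo carried a knockout allele and no wild-type cortex was compared. The mice had a C57BL/6N background and embryos of either sex were used. The E11.5 and E12.5 libraries came from different sequencing providers and platforms, so stage and provider cannot be told apart.

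PI is built from CDP-diacylglycerol and inositol, carried between membranes by transfer proteins, and phosphorylated on its inositol ring at the 3, 4 and 5 positions to give the phosphoinositides. Phospholipase C cleaves PI(4,5)P2 to diacylglycerol and inositol trisphosphate, while class I PI 3-kinases turn it into PI(3,4,5)P3. Phosphatases reverse the phosphorylations of the ring. Mboat7 encodes LPLAT11, which attaches arachidonic acid to lysophosphatidylinositol and so sets the fatty acid that these lipids carry. The comparison of genotypes within each stage asks whether the transcripts of the enzymes that act on PI differ when LPLAT11 is lost.

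Each cortex had between 20799311 and 28189771 counts. At E11.5 Mboat7 itself had 700 and 876 counts in Mboat7+/- and 1103 and 860 in the libraries labelled Mboat7-/-, and 739 and 782 against 730 and 729 at E12.5. Scaled for library size, it was higher without overlap in the Mboat7-/- libraries at E11.5 (log2 fold change 0.18, SE 0.11) and lower without overlap at E12.5 (-0.17, SE 0.10). Neither difference passed the test, so these counts do not check the genotype labels. Radial glia markers such as Sox2, Nes and Vim were abundant in all 8 cortices. In 1 cortex, Mboat7+/- replicate 1 at E11.5, Xist had 17875 counts, against at most 2 in the others. In the fit without a replicate block, 0 of 52 tested cell type markers had an adjusted p under 0.05 at E11.5 and 0 of 55 at E12.5, by edgeR's quasi-likelihood test. With the replicate number as a block, 16 of the 52 did at E11.5, where 3.38% of all genes did. These were 5 blood markers, among them Hbb-y and Hba-x, and 2 neuron markers, Tubb3 and Stmn2, all lower in Mboat7-/- cortices, 5 mesenchyme markers, among them Pdgfra, Postn and Col3a1, all higher, Eomes, Gadd45g and Fabp7, lower, and Mfap4, higher. At E12.5 the block gave 1 such marker, Hbb-bh1, which was lower, beside 0.196% of all genes. Summed levels of the blood, mesenchyme and neuron lists were not tested. The genotypes were apart in the blood and mesenchyme sums at E11.5 and overlapped in the other sums given here. At E11.5 the summed level of the blood list was 6779.9 and 5119 CPM (counts scaled to a common library size) in Mboat7+/- and 3536 and 3764 in Mboat7-/- cortices, with 6 of 6 tested markers lower. The alpha-globin genes Hba-a1 and Hba-a2 were at 0 at E11.5, beside means of 1182 and 1119 CPM at E12.5. The stages were counted on different annotations, so these zeros cannot be read as absent expression. At E12.5 the blood list summed to 5308 and 7714 against 5402 and 3811 CPM, with 9 of 9 lower. The mesenchyme list at E11.5 summed to 1621 and 1567 against 1855 and 2017 CPM, with 8 of 9 higher, and the neuron list to 1938 and 2218 against 1293 and 2072 CPM, with 8 of 8 lower. At E12.5 the mesenchyme list had 677 and 527 against 657 and 709 CPM, with 6 of 9 higher, and the neuron list 3782 and 3553 against 3689 and 3789 CPM, with 7 of 8 higher. Their part in the differences below was not tested. In such bulk tissue, fewer cells of a type and less RNA per cell cannot be told apart.

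None of the 49 genes passed the test for a genotype difference at either stage. With edgeR's quasi-likelihood test on the deposited counts, 0 of 49 had an adjusted p (Benjamini-Hochberg over all genes) under 0.05 at E11.5, where 0.0% of the 14935 genes tested did, and 0 of 49 at E12.5, where 0.0184% of 16326 did. All 49 genes passed the filter on low counts at both stages. Mboat7-/- over Mboat7+/- gave a median log2 fold change of 0.07 at E11.5, against -0.01 over all genes, and of 0.05 at E12.5, against 0.00. At each stage 30 of the 49 genes were higher and 19 lower in the Mboat7-/- cortices, a share of 61.2% beside 48.9% of all genes higher at E11.5 and 51.2% at E12.5.

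At an unadjusted p under 0.05, 3 genes were counted at E11.5, which are Plcg1, Pik3c2a and Plcb3, and all were higher in Mboat7-/- cortices. This is 6.12% of the 49, below the 14.1% of all genes at that threshold and the 8.03% that were higher. At E12.5 there were 4, Plce1, Pik3r1, Inpp4b and Pik3c2a, again all higher, or 8.16% beside 4.23% of all genes in either direction and 2.85% higher. DESeq2 gave 1 such gene at E11.5 and 2 at E12.5, and no adjusted p under 0.05 at either stage. The counts moved with single cortices. At E11.5 the number was 1 without Mboat7+/- replicate 1 and 7 without Mboat7-/- replicate 2. At E12.5 it was 7 without Mboat7+/- replicate 1, 9 without Mboat7-/- replicate 1, and 0 without replicate 2 of either genotype.

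The precision was enough to bound most differences. The 95% interval of the fold change lay within 2-fold in either direction for 45 of the 49 genes at E11.5 and 47 at E12.5, and within 1.5-fold for 38 and 37. The genes whose interval reached past 2-fold were Cds1, Synj2, Inpp4b and Mtm1 at E11.5 and Inpp4b and Plcd3 at E12.5, all with a low level. The standard error (SE) of the log2 fold change had a median of 0.11 at both stages, and ranged from 0.20 to 0.54 for the 10 genes under 10 CPM at E11.5 and from 0.22 to 0.36 for the 8 at E12.5.

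**Figure D1:**
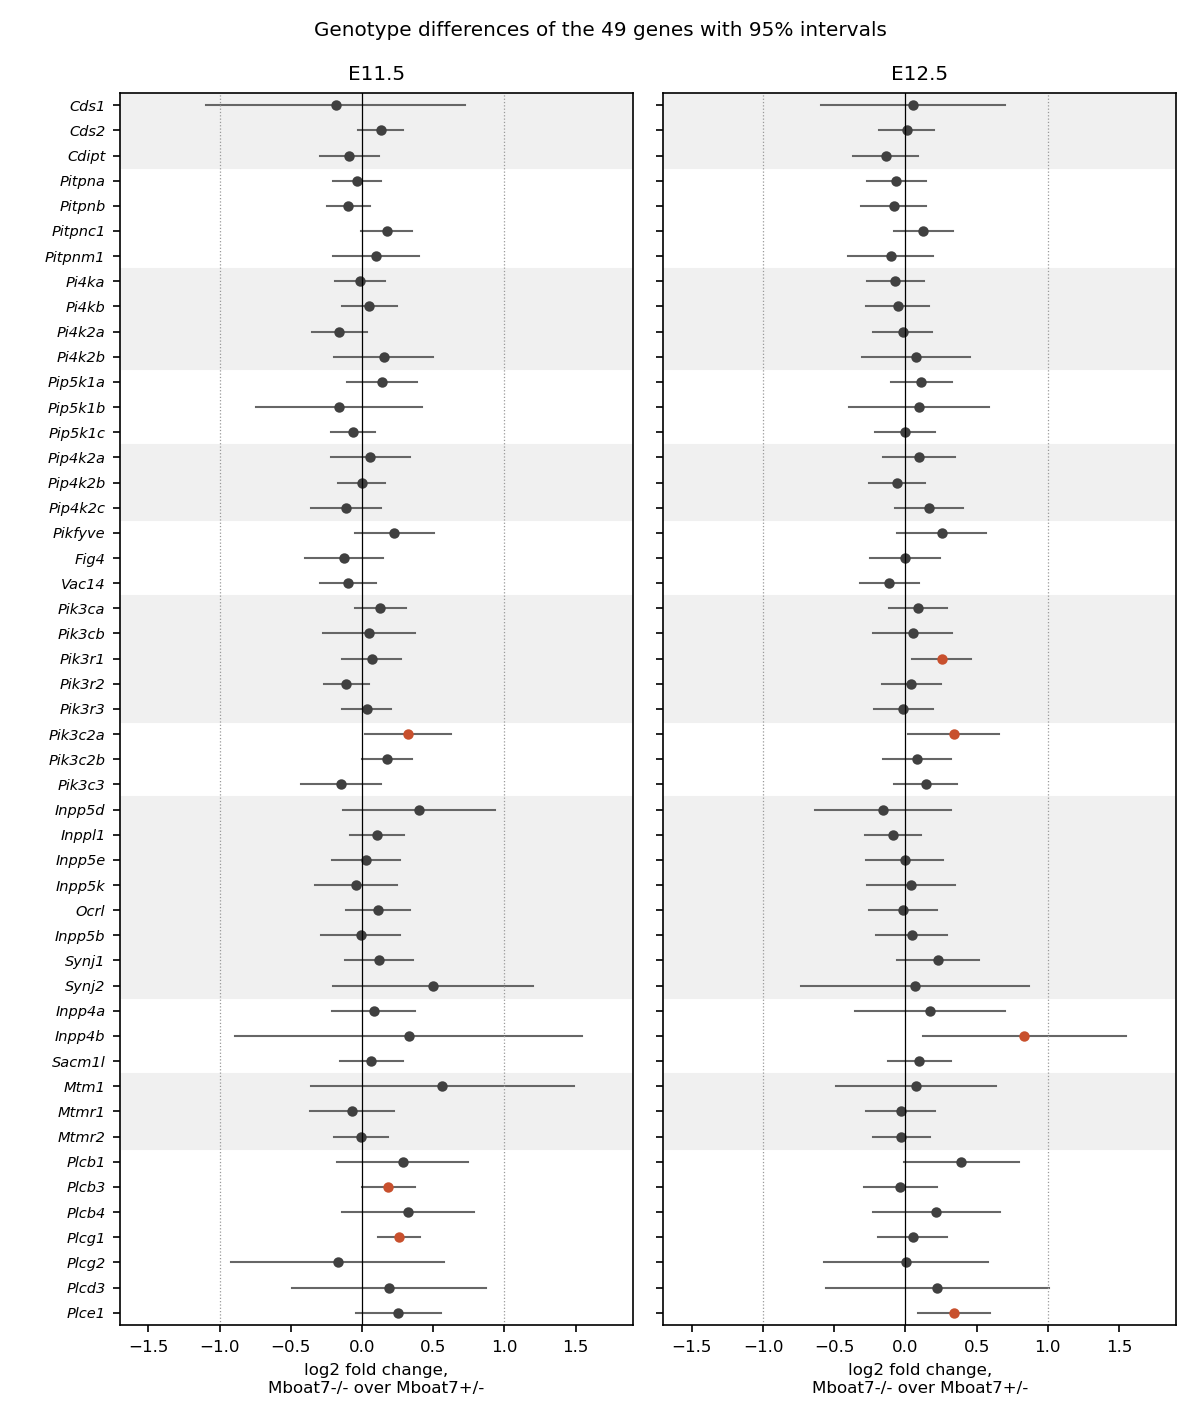
Log2 fold change of each of the 49 genes at E11.5 (left) and E12.5 (right), with 95% intervals as horizontal bars, grouped by role from PI synthesis at the top to phospholipase C at the bottom; dotted lines mark 2-fold, and orange points have an unadjusted p under 0.05. The orange points all lie to the right of 0, and 45 intervals at E11.5 and 47 at E12.5 stay between the dotted lines.

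The levels of the 49 genes spanned a wide range, given here as CPM per kilobase of exonic length so that genes can be set beside each other. At E11.5 the highest was Pitpna, at 41.6 ± 2.1 (SD, n = 4 cortices of both genotypes), and the lowest Inpp4b, at 0.060 ± 0.013. Among the members of most families in the 49, 1 paralog supplied the bulk of the transcripts. Shares below are of the summed CPM per kilobase of a family's members among the 49 genes, without its other genes. They are the mean of the 4 cortices of a stage.

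**Figure D2:**
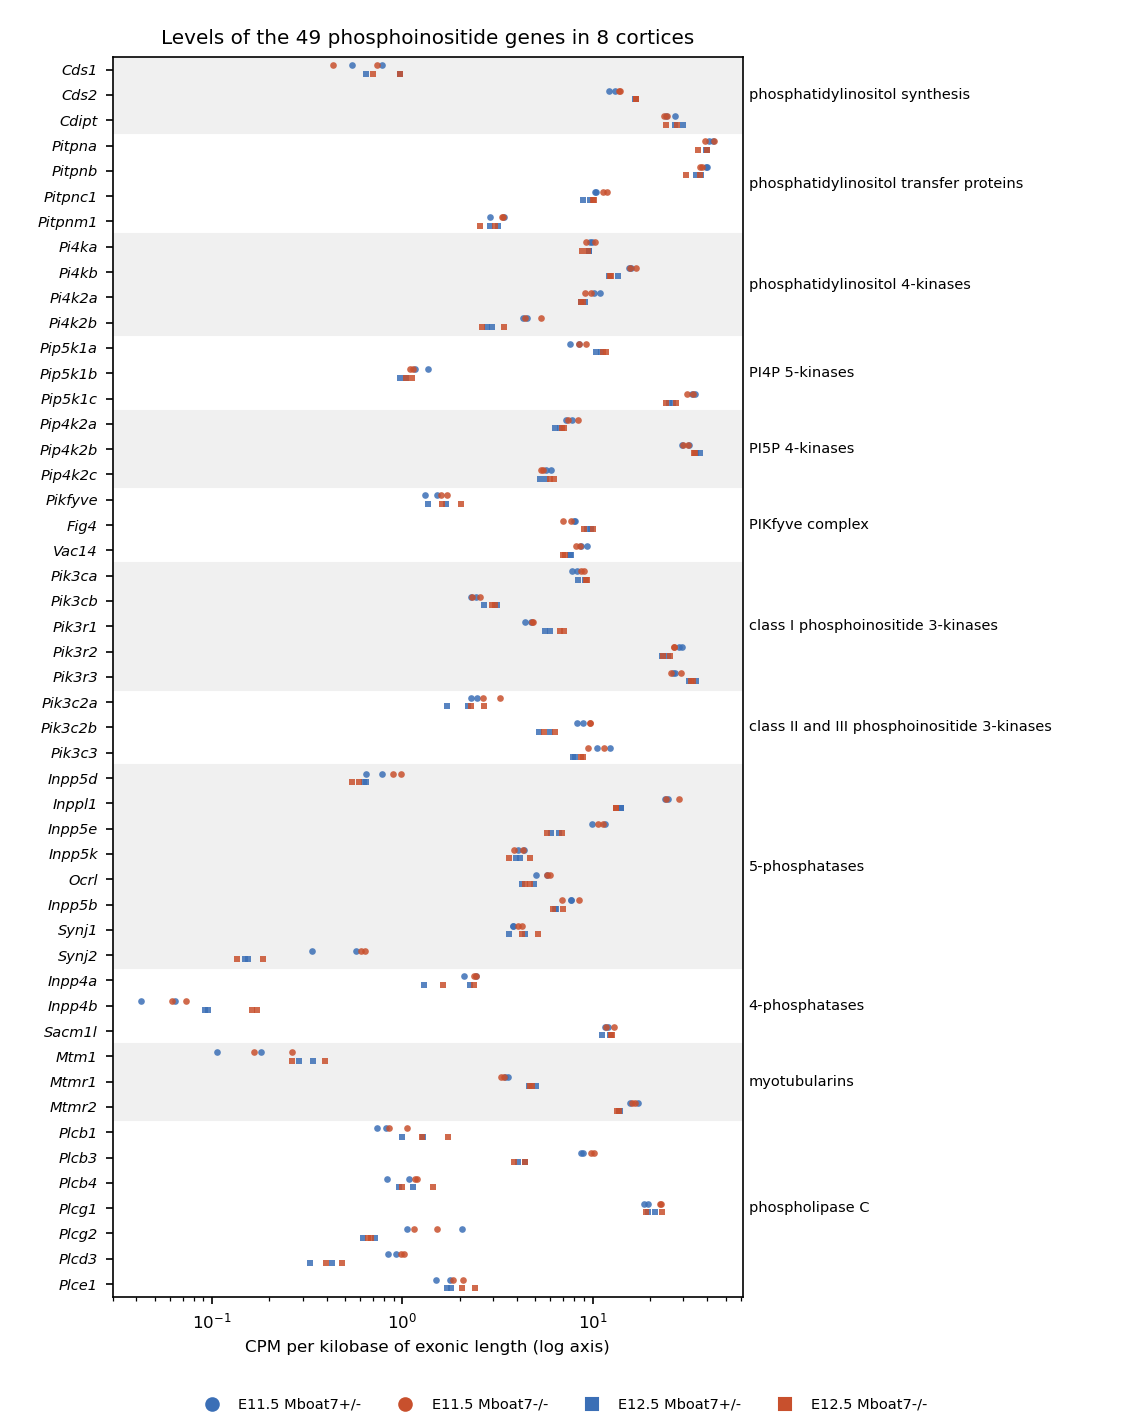
Level of each of the 49 genes in CPM per kilobase of exonic length (log axis) in the 8 cortices, with circles for E11.5, squares for E12.5, blue for Mboat7+/- and orange for Mboat7-/-, and shaded bands for the roles named on the right. For most genes the points of both genotypes lie on top of each other, with Pitpna at 41.6 and Inpp4b at 0.060 at the ends for E11.5.

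Promoter sequences are shown for the genes with the smallest p at E11.5 (Plcg1) and at E12.5 (Plce1), and for Pik3c2a. The last is the gene with an unadjusted p under 0.05 at both stages. Each window holds the 250 bases before and 50 bases from the RefSeq start (GRCm38.p6), the most upstream one where a gene has several. The windows run 5′ to 3′ on the gene's strand, with every CG dinucleotide in capitals. They differ in how many CG they hold, the sequence feature in which the promoters of the 49 genes were compared.
Plcg1, chr2:160731060-160731359, plus strand: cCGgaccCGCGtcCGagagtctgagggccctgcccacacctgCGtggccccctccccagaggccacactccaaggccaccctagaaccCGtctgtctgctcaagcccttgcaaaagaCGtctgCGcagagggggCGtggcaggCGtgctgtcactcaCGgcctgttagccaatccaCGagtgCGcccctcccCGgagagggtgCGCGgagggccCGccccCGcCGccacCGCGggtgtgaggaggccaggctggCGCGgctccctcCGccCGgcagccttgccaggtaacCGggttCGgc
Plce1, chr19:38523947-38524246, plus strand: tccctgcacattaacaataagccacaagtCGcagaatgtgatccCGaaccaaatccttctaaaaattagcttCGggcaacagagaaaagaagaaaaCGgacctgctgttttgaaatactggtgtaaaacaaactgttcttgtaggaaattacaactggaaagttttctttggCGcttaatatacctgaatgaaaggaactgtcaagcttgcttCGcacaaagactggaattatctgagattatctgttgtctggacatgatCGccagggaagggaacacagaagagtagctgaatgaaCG
Pik3c2a, chr7:116443409-116443708, minus strand: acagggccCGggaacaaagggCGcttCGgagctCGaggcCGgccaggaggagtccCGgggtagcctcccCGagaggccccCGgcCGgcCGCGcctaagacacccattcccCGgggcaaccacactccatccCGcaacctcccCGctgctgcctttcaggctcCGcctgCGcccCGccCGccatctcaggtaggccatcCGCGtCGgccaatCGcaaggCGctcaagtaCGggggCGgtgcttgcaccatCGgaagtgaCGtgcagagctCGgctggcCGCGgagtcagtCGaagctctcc

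The window held 27 CG in Plcg1, 31 in Pik3c2a and 8 in Plce1. A RefSeq window was matched by symbol for 45 of the 49 genes, not for Cdipt, Pip5k1b, Pip4k2b and Pik3c3. The median was 23 CG, beside 7 over the 27025 genes with a window, and beside 20 and 21 over the genes tested at E11.5 and E12.5. At least 10 CG were found in 41 of the 45, or 91.1%, against 44.0% of all windows and 80.9% and 82.2% of those of tested genes. The other 4 were Plce1, Inpp5d and Synj2, with 8, 6 and 6, and Mtm1, which had 0. These 4 genes had low levels, between 0.18 and 1.81 CPM per kilobase at E11.5. Across the 45 genes, however, the number of CG and the level were only weakly related, with a Spearman rho of 0.15 at both stages, given as a description since genes of the same libraries are not independent.

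PI synthesis was represented by Cds1 and Cds2, which make CDP-diacylglycerol, and by Cdipt, the PI synthase that joins it to inositol. Cds2 supplied 95.5% of the summed CPM per kilobase of the pair at E11.5 and 95.3% at E12.5. It was higher in both Mboat7-/- cortices at E11.5, with 127 and 126 against 119 and 112 CPM (log2 fold change 0.13, SE 0.07), and overlapped at E12.5, as Cds1 did at both stages. Cdipt stood at 62.8 and 70.4 CPM in Mboat7+/- and 61.3 and 64.2 CPM in Mboat7-/- cortices at E11.5. At E12.5 the values were 70.6 and 77.8 against 71.7 and 63.1 CPM. The genotypes overlapped at both stages. The log2 fold change was -0.09 (SE 0.09, adjusted p = 0.69 by edgeR's quasi-likelihood test) and -0.14 (SE 0.10, adjusted p = 0.95), with 95% intervals from -0.29 to 0.12 and from -0.37 to 0.09.

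The PI transfer proteins carry PI from the endoplasmic reticulum, where it is made, to membranes where it is phosphorylated. Pitpna and Pitpnb, the class I proteins, made up 44.2% and 40.7% of this family at E11.5 and 44.9% and 40.5% at E12.5. Pitpnc1, a class II protein, had 68.7 and 68.4 CPM in Mboat7+/- and 79.1 and 75.3 CPM in Mboat7-/- cortices at E11.5, and 64.0 and 58.7 against 67.6 and 66.4 CPM at E12.5. It was higher in both Mboat7-/- cortices at both stages, without overlap, but its log2 fold changes of 0.17 (SE 0.08) and 0.13 (SE 0.09) did not pass the adjusted threshold. Pitpnm1 was at 20.4 to 24.1 CPM at E11.5 and 18.0 to 22.4 at E12.5, with overlapping genotypes.

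The PI 4-kinases, which make PI4P, were more evenly expressed. Pi4kb, the Golgi enzyme, held 39.6% of the family at E11.5, Pi4k2a 24.7%, Pi4ka, the plasma membrane enzyme, 24.2%, and Pi4k2b the rest. At E12.5 Pi4k2b held 8.67%. Pi4k2a was lower without overlap at E11.5, with 73.1 and 68.4 CPM in Mboat7+/- and 65.7 and 60.8 CPM in Mboat7-/- cortices. Log2 fold changes of the 4 genes between genotypes lay from -0.16 (Pi4k2a, E11.5) to 0.15 (Pi4k2b, E11.5).

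Among the PI4P 5-kinases, which make PI(4,5)P2, Pip5k1c was the main transcript. It encodes PIPKIγ, the kinase that the study inhibited with UNC3230 in a separate experiment. It made up 77.5% of the family at E11.5 and 67.9% at E12.5, with Pip5k1a at 19.7% and 29.4% and Pip5k1b at 2.77% and 2.75%. Pip5k1c had 198.9 and 191 CPM in Mboat7+/- and 179 and 194 CPM in Mboat7-/- cortices at E11.5. At E12.5 it had 152 and 145 against 139.7 and 157 CPM. The genotypes overlapped at both stages, with log2 fold changes of -0.06 (SE 0.07) and -0.00 (SE 0.10). The 95% intervals ran from -0.22 to 0.09 and from -0.21 to 0.21. Pip5k1a was higher in both Mboat7-/- cortices at E12.5, 51.9 and 49.9 against 48.7 and 45.6 CPM (log2 fold change 0.11, SE 0.10), and overlapped at E11.5.

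The PI5P 4-kinases make PI(4,5)P2 from the minor lipid PI5P. Pip4k2b made up 69.8% of the family at E11.5 and 73.6% at E12.5. Pip4k2a overlapped at E11.5 and was higher without overlap at E12.5, with log2 fold changes of 0.06 (SE 0.12) and 0.09 (SE 0.12). Pip4k2c gave 31.1 and 32.9 CPM in Mboat7+/- and 29.9 and 29.3 CPM in Mboat7-/- cortices at E11.5, and 31.0 and 28.7 against 32.4 and 34.4 CPM at E12.5. The genotypes did not overlap at either stage but lay in opposite order, with log2 fold changes of -0.11 (SE 0.11) and 0.16 (SE 0.11).

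PIKfyve makes PI(3,5)P2 on endosomes and works in a complex with the phosphatase Fig4 and the scaffold Vac14. Pikfyve, the longest of the 49 transcripts by exonic length (19.2 kb), had 25.2 and 29.3 CPM in Mboat7+/- and 33.2 and 30.7 CPM in Mboat7-/- cortices at E11.5. At E12.5 it had 32.5 and 26.1 against 31.1 and 38.9 CPM. The genotypes were apart at E11.5 and overlapped at E12.5, with log2 fold changes of 0.23 (SE 0.12) and 0.25 (SE 0.14). Without 1 cortex these ran from 0.13 to 0.35 at E11.5, lowest without Mboat7+/- replicate 1, and from 0.08 to 0.42 at E12.5, lowest without Mboat7-/- replicate 2. Its partners lay the other way: Vac14 was lower in both Mboat7-/- cortices at both stages, with log2 fold changes of -0.10 (SE 0.09) and -0.11 (SE 0.09), and Fig4 at E11.5 only, with -0.13 (SE 0.12).

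Class I PI 3-kinases join a catalytic to a regulatory subunit. Pik3ca (p110α) made up 77.8% of the catalytic pair at E11.5 and 75.2% at E12.5, and Pik3cb the rest. Of the regulatory subunits, Pik3r2 (p85β) and Pik3r3 (p55γ) were the abundant ones at E11.5, with 46.7% and 45.5%, and Pik3r1 (p85α) had 7.88%. At E12.5 Pik3r1 had 60.3 and 56.7 CPM in Mboat7+/- and 68.1 and 71.5 CPM in Mboat7-/- cortices. The genotypes did not overlap, and the log2 fold change was 0.25 (SE 0.09, 95% interval 0.05 to 0.46). Its adjusted p was 0.95. At E11.5 the values were closer, 44.8 and 47.9 against 48.2 and 49.03 CPM (log2 fold change 0.07, SE 0.09). Pik3ca was higher without overlap at both stages, by 0.13 (SE 0.08) and 0.09 (SE 0.09) on the log2 scale. Pik3r2 was lower without overlap at E11.5, with 123 and 119 against 112.2 and 112.2 CPM (log2 fold change -0.11, SE 0.07), and overlapped at E12.5, while Pik3cb and Pik3r3 overlapped at both stages.

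Class II kinases make PI3P and PI(3,4)P2, and the class III kinase Pik3c3 (Vps34) makes PI3P for endosomes and autophagy. Pik3c2a gave 25.5 and 27.5 CPM in Mboat7+/- and 36.5 and 29.7 CPM in Mboat7-/- cortices at E11.5, and 24.7 and 19.2 against 25.5 and 30.1 CPM at E12.5. It was the only gene of the 49 with an unadjusted p under 0.05 at both stages. The log2 fold changes were 0.32 (SE 0.13, adjusted p = 0.33) and 0.34 (SE 0.15, adjusted p = 0.95) by edgeR's quasi-likelihood test. Single cortices moved both values. At E11.5 the log2 fold change was 0.16 without Mboat7-/- replicate 1, and without replicate 2 of that genotype it was 0.46 (SE 0.14) with an adjusted p of 0.049. At E12.5 it was 0.17 without Mboat7+/- replicate 2, 0.22 without Mboat7-/- replicate 2 and 0.53 without Mboat7+/- replicate 1. Pik3c2b, the more abundant class II gene with 77.5% of the pair, had 82.8 and 76.7 against 90.1 and 89.6 CPM at E11.5 (log2 fold change 0.17, SE 0.08). At E12.5 it overlapped, at 55.4 and 48.5 against 51.4 and 58.4 CPM. Pik3c3 overlapped at E11.5, with 47.4 and 55.4 against 42.2 and 51.2 CPM. At E12.5 it did not, with 36.3 and 35.2 against 38.7 and 40.03 CPM, and the log2 fold changes were -0.15 (SE 0.12) and 0.14 (SE 0.10).

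**Figure D3:**
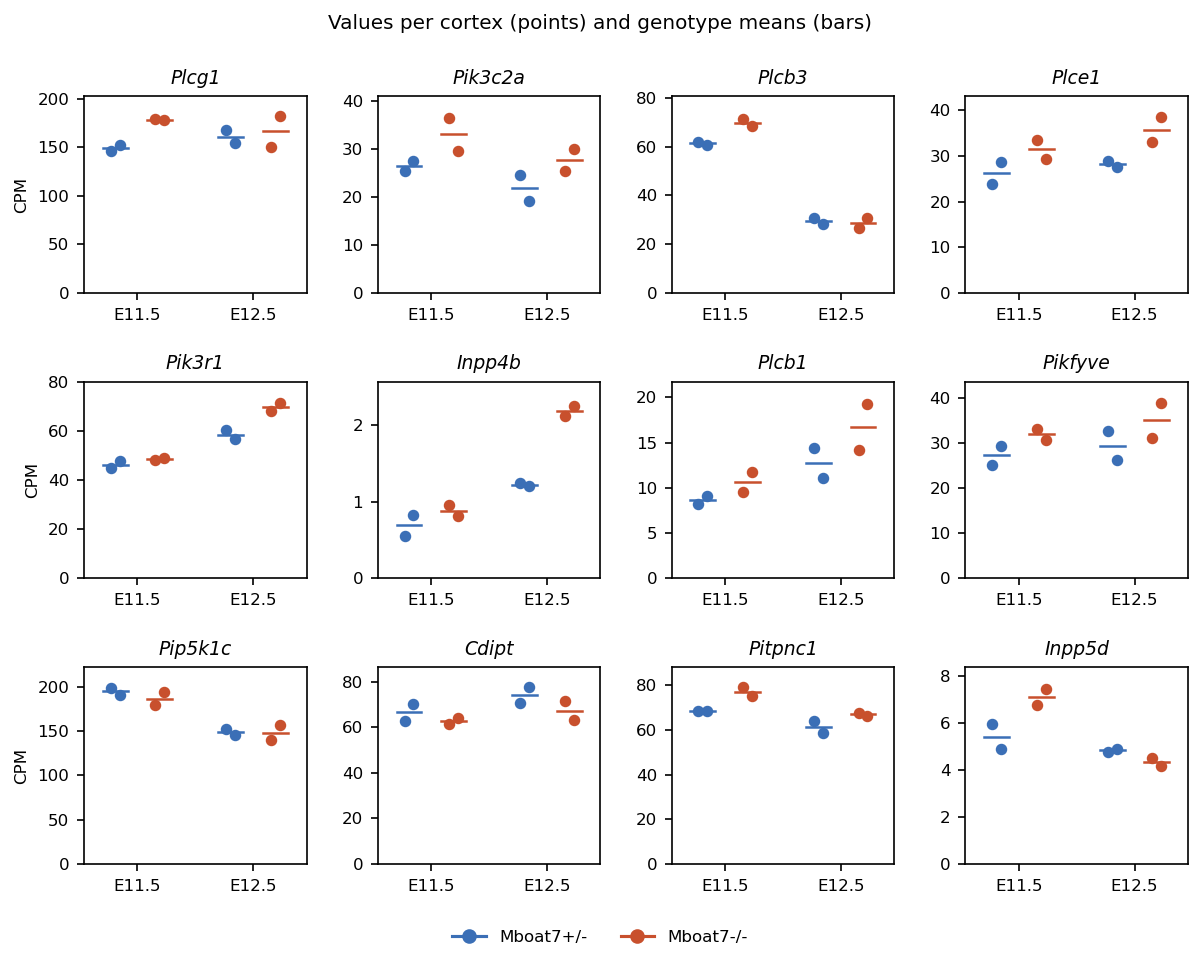
CPM of 12 of the genes in each cortex (points) with the genotype mean (bar), in blue for Mboat7+/- and orange for Mboat7-/-, at E11.5 and E12.5; every vertical axis starts at 0. Plcg1 at E11.5 and Inpp4b and Pik3r1 at E12.5 show no overlap between genotypes, while Pip5k1c and Cdipt overlap at both stages.

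Of the 8 phosphatases that remove the 5-phosphate, Inppl1 (SHIP2) was the most abundant at E11.5, at 25.5 ± 2.0 CPM per kilobase (SD, n = 4). It made up 96.9% of the SHIP pair, the rest being Inpp5d (SHIP1), which is known chiefly from blood cells and microglia. At E11.5 Inpp5d had 5.96 and 4.87 CPM in Mboat7+/- and 6.76 and 7.45 CPM in Mboat7-/- cortices, and at E12.5 4.76 and 4.91 against 4.52 and 4.15 CPM. Higher without overlap at E11.5 and lower without overlap at E12.5, it had log2 fold changes of 0.40 (SE 0.24) and -0.16 (SE 0.22). The summed level of 8 microglia and macrophage markers was 52.7 and 45.9 against 48.6 and 54.1 CPM at E11.5, with 4 of 8 higher, and 41.1 and 33.9 against 42.2 and 48.9 CPM at E12.5, with 7 of 8 higher. At E11.5 Mboat7+/- replicate 2 was the lowest and Mboat7-/- replicate 2 the highest cortex for both Inpp5d and the sum. At E12.5 Mboat7-/- replicate 2 was the lowest for Inpp5d and the highest for the sum. None of these markers was at 0, and their part in the values of Inpp5d was not tested.

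Synaptojanins remove phosphates from PI(4,5)P2 during endocytosis. Synj1 made up 88.2% of the pair at E11.5 and 96.5% at E12.5, as Synj2 went from 2.80 to 5.35 CPM at E11.5 to between 1.13 and 1.55 CPM at E12.5. At E11.5 Synj2 had 4.76 and 2.80 CPM in Mboat7+/- and 5.09 and 5.35 CPM in Mboat7-/- cortices. The groups did not overlap, yet the log2 fold change of 0.50 (SE 0.31) had an interval from -0.20 to 1.201. It was 0.14 without Mboat7+/- replicate 2 and 0.90 without Mboat7+/- replicate 1. Ocrl and Inpp5b, the related phosphatases of endosomes and the Golgi, held 42.3% and 57.7% of their pair at E11.5, and both overlapped between genotypes at both stages, as did Inpp5e, a phosphatase of the primary cilium, and Inpp5k.

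Of the phosphatases that remove the 4-phosphate, Inpp4a and Inpp4b act on PI(3,4)P2 and Sacm1l (SAC1) on PI4P. Inpp4b had the largest fold change of the 49 at E12.5 and the lowest level per kilobase of exonic length at both stages. Its counts at E12.5 were 26 and 26 in Mboat7+/- and 49 and 51 in Mboat7-/- cortices, or 1.25 and 1.204 against 2.13 and 2.25 CPM. The log2 fold change was 0.83 (SE 0.32, 95% interval 0.12 to 1.55, adjusted p = 0.95 by edgeR's quasi-likelihood test). At E11.5 the counts were 12 and 22 against 27 and 20, with overlap, and the log2 fold change was 0.33 (SE 0.54). Inpp4a at E12.5 had 23.6 and 13.4 against 17.02 and 24.7 CPM, so that replicates of a genotype differed by more than the genotypes. Sacm1l, at 41.7 to 48.4 CPM over all cortices, had log2 fold changes of 0.07 (SE 0.10) and 0.10 (SE 0.10). At E12.5 Mboat7+/- replicate 1 lay above replicate 2 and Mboat7-/- replicate 2 above replicate 1 in Inpp4a and in 23 of the 49 genes in all, a share of 46.9% beside 32.1% of all genes. The 4 genes with an unadjusted p under 0.05 at that stage, Plce1, Pik3r1, Inpp4b and Pik3c2a, were among the 23, as were Pikfyve, Plcb1, Plcg1, Pip5k1c and Pip4k2c. The summed levels of the neuron, intermediate progenitor, endothelium, microglia and macrophage, and mesenchyme markers had this order too. Those of the radial glia and blood markers did not. The part of these cell types in the values was not tested.

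Myotubularins remove the 3-phosphate from PI3P and PI(3,5)P2. Among Mtm1, Mtmr1 and Mtmr2, the ones in the 49, Mtmr2 held 82.0% of the summed CPM per kilobase at E11.5 and Mtm1 0.89%. Other myotubularins lay outside the 49. Of these, Mtmr4 was above Mtmr2 at E11.5, at 23.7 against 16.5 CPM per kilobase. Mtm1 had the largest fold change of the 49 at E11.5, with 1.48 and 2.53 CPM in Mboat7+/- and 3.68 and 2.31 CPM in Mboat7-/- cortices. The genotypes overlapped, and the log2 fold change of 0.56 (SE 0.41) had an interval from -0.36 to 1.49. Mtm1, Mtmr1 and Ocrl lie on the X chromosome, where the cortex with Xist differs from the rest. Without it the log2 fold changes at E11.5 were 0.26 (SE 0.48) for Mtm1, -0.10 (SE 0.18) for Mtmr1 and 0.02 (SE 0.12) for Ocrl, from 0.56, -0.07 and 0.11 with it.

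Phospholipase C was the family with the most genes apart between genotypes at E11.5. There, 6 of its 7 genes among the 49 were higher in both Mboat7-/- cortices than in either Mboat7+/- cortex, where 23.1% of all genes were. The 7 had a median log2 fold change of 0.26 at the first stage and of 0.22 at the next, and 6 of 7 were above 0 at each stage, but 1 was apart between genotypes at E12.5, where the share of all genes was 16.9%. None passed the adjusted threshold, and with the trend in length and GC content removed, as described for all 49 genes further on, the medians were 0.15 and 0.13.

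Plcg1 (PLCγ1), which is activated by receptor tyrosine kinases, was the most abundant phospholipase C of the 49 genes. It held 57.3% of the summed CPM per kilobase of the 7 at E11.5 and 68.2% at E12.5. Phospholipase C genes outside the 49, such as Plcd1 at 7.57 and Plch1 at 4.91 CPM per kilobase at E11.5, are not in these shares. At E11.5 Plcg1 had 146 and 153 CPM in Mboat7+/- and 179 and 178 CPM in Mboat7-/- cortices. The gap between genotypes was wider than that between replicates, and the log2 fold change of 0.26 (SE 0.06, 95% interval 0.11 to 0.40) had the smallest p of the 49. Its adjusted p was 0.19 by edgeR's quasi-likelihood test, and 0.048 by that test with the replicate number as a block. It was the only one of the 49 genes called with the block, 2.04% beside the 3.38% of all genes. At E12.5 Plcg1 had 168 and 154 against 151 and 183 CPM, with overlap and a log2 fold change of 0.05 (SE 0.11).

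Plcb3, a Gq-regulated isozyme, had 62.0 and 60.9 against 71.2 and 68.4 CPM at E11.5 (log2 fold change 0.18, SE 0.08, adjusted p = 0.35). At E12.5 it had 30.7 and 28.2 against 26.8 and 30.6 CPM, and the genotypes overlapped (-0.04, SE 0.12). Plcb1, the isozyme with a well-known role in cortical neurons, had 8.17 and 9.14 against 9.51 and 11.8 CPM at E11.5 and 14.4 and 11.1 against 14.2 and 19.2 CPM at E12.5. Its log2 fold changes were 0.28 (SE 0.20) and 0.39 (SE 0.18), with overlap at E12.5. Without Mboat7-/- replicate 2 they were 0.13 and 0.16, and without Mboat7-/- replicate 1 they were 0.44 and 0.59.

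Plce1 (PLCε), a Ras-regulated isozyme, had the smallest p at E12.5. Its values were 28.9 and 27.5 CPM in Mboat7+/- and 33.05 and 38.5 CPM in Mboat7-/- cortices, and the log2 fold change was 0.34 (SE 0.12, 95% interval 0.09 to 0.60, adjusted p = 0.95). At E11.5 it had 23.9 and 28.7 against 33.5 and 29.4 CPM, again without overlap, with a log2 fold change of 0.26 (SE 0.13), which was 0.14 without Mboat7+/- replicate 1 and 0.41 without Mboat7+/- replicate 2. Of the others, Plcb4 and Plcd3 were higher without overlap at E11.5 and overlapped at E12.5. Plcg2, the blood cell form, had 8.82 and 4.57 against 6.51 and 4.98 CPM at E11.5, so that its 2 heterozygotes differed by more than the genotypes.

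Counted over all roles, 16 of the 49 genes were higher without overlap at E11.5 (32.7%, beside 23.1% of all genes) and 8 lower (16.3%, beside 23.3%). At E12.5, 11 were higher without overlap (22.4%, beside 16.9%) and 6 lower (12.2%, beside 15.2%). The lower ones at E11.5 were Pitpnb, Pi4k2a, Pip5k1b, Pip4k2c, Fig4, Vac14, Pik3r2 and Mtmr1. At E12.5 they were Pi4ka, Pip4k2b, Vac14, Inpp5d, Inppl1 and Mtmr2, so Vac14 was the gene in both sets.

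When all 8 cortices entered 1 model that also held the stage, 0 of 49 genes had an adjusted p under 0.05 (0.0% of 15003 genes) and 8 an unadjusted p under 0.05 (7 by DESeq2), which is 16.3% beside 12.4% of all genes in either direction and 7.39% higher. These 8, all higher in Mboat7-/- cortices, were Plce1, Pik3c2a, Pitpnc1, Pik3r1, Plcb1, Pikfyve, Inpp4b and Plcg1. The log2 fold change over both stages was 0.33 (SE 0.10) for Pik3c2a and 0.30 (SE 0.09) for Plce1, each with an adjusted p of 0.31 by edgeR's quasi-likelihood test. It was 0.15 (SE 0.06) for Pitpnc1, 0.17 (SE 0.07) for Pik3r1 and 0.65 (SE 0.27) for Inpp4b. The count was 3 without Mboat7+/- replicate 1 of E11.5, 2 without Mboat7+/- replicate 2 of E12.5 and 3 without Mboat7-/- replicate 2 of E12.5.

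The genotype difference was compared between stages by an interaction term. By edgeR's quasi-likelihood test and by DESeq2, 0 of the 49 genes had an adjusted or an unadjusted p under 0.05 for it, beside 5.45% of all genes for the latter in edgeR. The smallest p values belonged to Pip4k2c (difference of the log2 fold changes, E12.5 minus E11.5, 0.28, SE 0.15), Inpp5d (-0.56, SE 0.31) and Pik3c3 (0.28, SE 0.16), with adjusted p of 0.89 for each by edgeR's quasi-likelihood test. Of the 49 genes, 22 were higher in Mboat7-/- cortices at both stages and 11 lower at both, and 16 differed in sign. Across the 49 genes the log2 fold changes of the stages had a Pearson r of 0.40, beside 0.11 over the 13639 genes tested at both. The stages share no cortices, but the r is a description, since genes of a library are not independent.

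**Figure D4:**
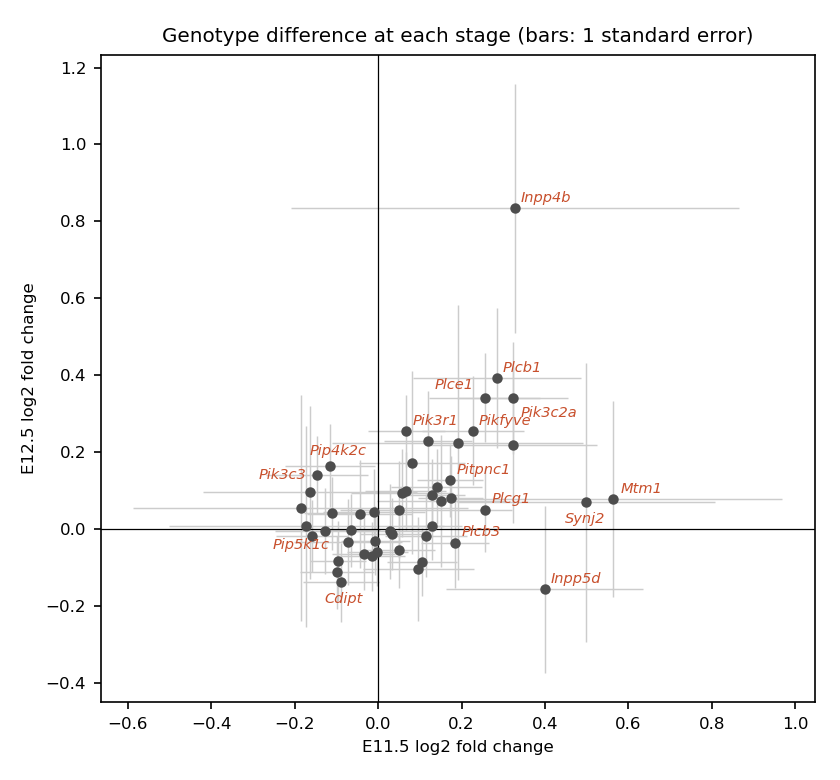
Log2 fold change at E12.5 against that at E11.5 for the 49 genes, with bars of 1 standard error in each direction. Inpp4b at the top, with 0.33 and 0.83, has the widest bar for E11.5, and 22 genes lie above 0 on both axes and 11 below 0 on both.

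The log2 fold changes were higher for genes with long exonic sequence. The 49 have a median exonic length of 6.399 kb, against 4.40 kb over the genes tested at E11.5 and 4.27 kb at E12.5. At E11.5, 15 of the 16 genes of at least 8 kb were higher in Mboat7-/- cortices, with a median log2 fold change of 0.20, and 15 of the 33 shorter ones, with a median of -0.01. At E12.5 the numbers were 14 of 16, with a median of 0.20, and 16 of 33, with -0.00. The length of 8 kb was chosen after the values were seen. All tested genes of at least 8 kb had a median of 0.12 (E11.5) and 0.06 (E12.5). The Pearson r between log2 length and log2 fold change was 0.62 over the 49 genes and 0.19 over all genes at E11.5, and 0.47 and 0.13 at E12.5.

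With the trend in exonic length and GC content taken out of each library, the 49 genes had a median log2 fold change of -0.00 at E11.5 and of 0.01 at E12.5, with 24 and 25 of 49 higher. The r with length was then 0.33 at both stages over the 49 genes and 0.00 over all genes. Pik3c2a then had log2 fold changes of 0.15 and 0.19 at the stages, in place of 0.32 and 0.34. That of Plce1 at E12.5 was 0.25 in place of 0.34, of Pikfyve at E11.5 0.06 in place of 0.23, and of Plcg1 at E11.5 0.19 in place of 0.26. That of Inpp4b at E12.5 was 0.67 in place of 0.83. Over 10 kb of exons are found in 9 of the 49, of which Pik3c2a, Plce1, Plcb1, Pikfyve, Pik3r1, Inpp4a, Inpp4b and Mtm1 had log2 fold changes above 0 at both stages and Pi4ka below 0 at both (-0.01 and -0.07).

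**Figure D5:**
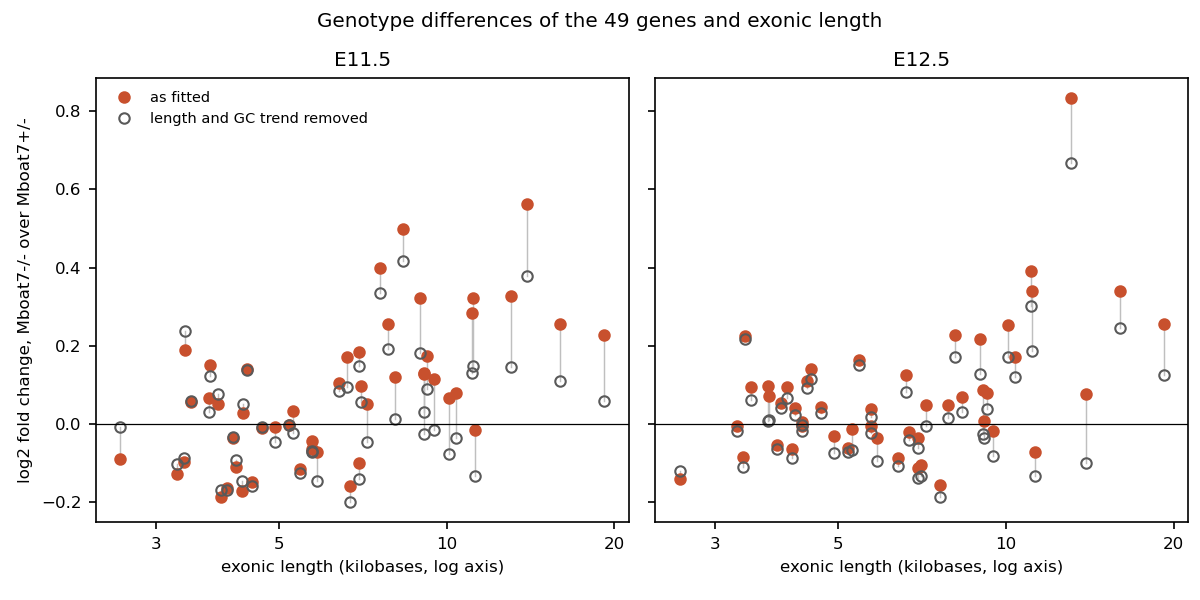
Log2 fold change of the 49 genes against exonic length in kilobases (log axis) at E11.5 and E12.5, as fitted (filled) and with the length and GC trend removed (open), joined by a line for each gene. The filled points go up to the right at both stages, with r of 0.62 and 0.47, and the open points lie lower for long genes.

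Between the stages, 38 of the 49 genes kept a mean CPM within 1.5-fold, with a median ratio of E12.5 to E11.5 of 0.92. The genes above were Inpp4b (2.17), Mtm1 (1.79) and Plcb1 (1.52). Those below were Synj2 (0.29), Plcd3 (0.43), Plcb3 (0.44), Plcg2 (0.46), Inppl1 (0.54), Inpp5e (0.58), Pik3c2b (0.63) and Pi4k2b (0.63). For Inppl1, the values of 153.8 to 182 CPM at E11.5 and 84.97 to 90.4 CPM at E12.5 lay far apart. These ratios set tables of different annotations and providers beside each other and were not tested.

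The other genes of the pathway were examined as 3 lists. Of 29 further phosphoinositide enzymes and their subunits, 27 were tested at E11.5, with a median log2 fold change of -0.01 and 12 higher, and 26 at E12.5, with 0.09 and 21 higher. Of 19 genes of inositol supply, inositol phosphates and IP3 receptors, 18 were tested at each stage, with medians of 0.08 and -0.04. Of 10 diacylglycerol kinases, which turn diacylglycerol into phosphatidic acid, 9 were tested, with medians of 0.07 and -0.00. None of these genes had an adjusted p under 0.05 by edgeR's quasi-likelihood test, and those with an unadjusted p under 0.05 numbered 1, 2 and 0 in the lists at E11.5 and 0, 0 and 1 at E12.5. The genes with the smallest p at E11.5 included Itpr3 and Itpr1, receptors through which inositol trisphosphate releases calcium. Itpr3 had 11.7 and 10.5 CPM in Mboat7+/- and 14.9 and 14.98 CPM in Mboat7-/- cortices (log2 fold change 0.43, SE 0.16, adjusted p = 0.29), and Itpr1 26.8 and 24.9 against 38.6 and 28.3 CPM (0.38, SE 0.16). Of 6 phospholipase C genes in these lists, 5 were tested at E11.5, with a median of 0.06 and 3 higher, and 4 at E12.5, with 0.02 and 3 higher. At E11.5 Plcd1 had 22.3 and 19.9 against 25.4 and 26.0 CPM (0.29, SE 0.13), while Plcd4 and Plch2 had log2 fold changes of -0.37 (SE 0.50) and -0.28 (SE 0.34), Plch1 of 0.15 (SE 0.12) and Plcb2 of 0.06 (SE 0.57). Inpp5f, which encodes the SAC-domain phosphatase SAC2, was at 110.5 and 122 against 83.9 and 110.7 CPM (-0.26, SE 0.12), and Dgkh and Dgkk had log2 fold changes of 0.68 (SE 0.41) and 0.55 (SE 0.34). At E12.5 the first by p were Dgke (0.37, SE 0.15), Dgkb (0.46, SE 0.22), Isyna1, the inositol synthase (-0.19, SE 0.10), Ip6k2 (0.14, SE 0.09), Mtmr7 (0.20, SE 0.12) and Pik3cd (0.28, SE 0.17), each with an adjusted p of 0.95.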

How the data were processed

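RNA was isolated from dissected cortices with RNeasy columns, and poly(A)-selected directional libraries were sequenced by 1 provider for E11.5 and another for E12.5 on another platform. For each stage the authors deposited a table of raw counts, not normalized, with genes as rows and embryos as columns. The submitters' processing notes name HISAT2, Subread, mm10 and GRCm39 without saying which table each was used for. The E11.5 counts are listed under 23420 gene symbols and the E12.5 counts under 78298 Ensembl identifiers, so the annotations differ. Identifiers were paired with symbols through GENCODE M21 and RefSeq gene tables (GRCm38), which also gave exonic length, GC content and promoter sequences. With overlapping or duplicated genes, the counting could divide reads differently in each table.

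The 49 genes, their roles and the lists of other pathway genes and markers were chosen with earlier results of these data known. The genes given by cortex are Cdipt and Pip5k1c, the 6 with the smallest p and the 2 with the largest absolute log2 fold change at each stage, and the 3 with the smallest interaction p. Other members are named with their values because all 49 are described, and those were chosen after the values were seen.

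A separate model was fitted for each stage in R 4.3.3 with edgeR 4.0.16, using TMM, filterByExpr at a minimum count of 10, the quasi-likelihood test and Benjamini-Hochberg adjustment over all genes tested. CPM were computed from the deposited counts on TMM-normalized library sizes, and per-kilobase levels divide them by exonic length. Fits over both stages had stage, or stage and its interaction with genotype, as terms. The prior count behind fitted fold changes was 0.125. A count of 3 corresponds to between 0.106 and 0.144 CPM. The intervals and the p-values come from the same fits. Both rest on the spread between the cortices of a genotype in these libraries only. Cortices of a genotype differed by more than sampling noise, with a chi-square per degree of freedom from 8.70 to 14.9. Whether embryos shared a litter is not given, so it is not known whether the spread between cortices includes differences between litters.

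Other settings tried were DESeq2 1.42.0, upper-quartile or RLE normalization, edgeR's earlier quasi-likelihood form, no filter or one of 10 counts in each cortex, a block for the replicate number, removal of the trend with length and GC content (splines of 5 degrees of freedom) with and without the block, and leaving out each cortex. The sample titles give a replicate number and name no batch. For the block, same-numbered cortices were treated as pairs. Across genes, their deviations from the genotype means correlated at 0.055 (E11.5) and -0.12 (E12.5). The fits were tested on simulated data. Tables were made with Python 3.11.15, numpy 2.4.6, pandas 2.3.3, scipy 1.17.1 and matplotlib 3.10.9.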

Additional observations from a re-analysis of the deposited data

Results flagged for a closer look

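For Pip4k2c and Inpp5d, every Mboat7-/- cortex lay on one side of both Mboat7+/- cortices at E11.5 and on the other side at E12.5. Pip4k2c, a PI5P 4-kinase, was lower at E11.5 and higher at E12.5, and the difference of its log2 fold changes, E12.5 minus E11.5, was 0.277 (SE 0.15, adjusted p = 0.89 by edgeR's quasi-likelihood test). Inpp5d, the SHIP1 phosphatase, was higher at E11.5 and lower at E12.5, with a difference of -0.558 (SE 0.31, adjusted p = 0.89). Neither interaction passed the threshold. With 2 cortices a group, 23.1% of all genes were higher and 23.3% lower without overlap at E11.5, and 16.9% and 15.2% at E12.5.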

How the results depend on the processing

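Of 115 values of the counts and medians under the alternatives, 89 stayed within 1.5-fold or the spread between replicates, and of 459 values of the named genes 441 kept their direction and side of the threshold. These are loose criteria. At E12.5 the spread allowed for the median, 0.062, was larger than the median itself, 0.050. No named gene was under the adjusted threshold as reported, so most could hardly change side. At E11.5 the number of genes with an adjusted p under 0.05, 0 as reported, was 1 with the replicate block (Plcg1, adjusted p 0.048) and 0 to 1 over the fits that left out a cortex. At E12.5 it was 0 under every alternative run. The number with an unadjusted p under 0.05 at E11.5 was 1 by DESeq2, 5 with edgeR's earlier form and 1 to 7 over the fits that left out a cortex. At E12.5 it was 2 by DESeq2, 1 with the length and GC trend removed, 0 with the trend removed and the block, and 0 to 9 over the fits that left out a cortex. With the replicate numbers crossed at E12.5, a pairing chosen after seeing the data, it was 7. Over both stages the number was 2 with the trend removed, 0 with the trend removed and the block, and 2 to 10 without 1 cortex, and for the interaction 0 to 2. The median log2 fold change at E11.5 was -0.0033 with the trend removed, -0.0017 with the block as well, and 0.057 to 0.106 without 1 cortex, and at E12.5 without 1 cortex it ran from -0.014 to 0.075. The replicate block changed no other call among the 49 genes or the 3 pathway lists. At E11.5 it gave 505 genes of all 14935 an adjusted p under 0.05, in place of 0, and 16 of 52 cell type markers. At E12.5 it gave 32 of 16326, in place of 3, and 1 of 55 markers.

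The direction reversed for 8 of the named genes at a stage, where the reported log2 fold change lay between -0.09 and 0.08. With the trend removed, without and with the block, Mtm1 at E12.5 gave -0.10 and -0.11 and Pik3r1 at E11.5 gave -0.076 and -0.074. Without 1 cortex, Cdipt at E11.5 ranged from -0.163 to 0.0060. At E12.5 the ranges were -0.087 to 0.070 for Pip5k1c, -0.094 to 0.177 for Plcg1, -0.132 to 0.050 for Plcb3, -0.014 to 0.178 for Pik3c2b, -0.23 to 0.33 for Mtm1 and -0.17 to 0.27 for Synj2. In fits that left out a cortex, the lone cortex of a genotype was assumed to vary like the others. The causes were not tested. With 2 cortices per genotype, the 95% interval reached 2.33-fold (Inpp4b) and 1.88-fold (Cds1) to either side of the value at E11.5, and 1.74-fold (Synj2) and 1.72-fold (Plcd3) at E12.5. The differences of these low genes were thus only loosely bounded. These widths are not detection limits, since the calls used p adjusted over all genes tested.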
